A study of Drosophila melanogaster with 14 samples.

Results

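The *Cpr* genes of *Drosophila melanogaster* encode cuticle proteins and are named after the cytological band in which they lie, so that *Cpr67Fa1* and *Cpr67Fa2* are neighbours in band 67F. The genes described here are those whose symbol begins with Cpr and a digit and which passed the low-count filter of the authors in at least 1 of their 2 comparisons, of *sgg* isoA null or *sgg* isoB zygotic null embryos with control embryos. This gave 50 of the 17493 genes counted. Of these, 44 passed in the isoA comparison, 49 in the isoB comparison and 43 in both. Another 20 *Cpr* symbols in the count table passed in neither, and none of them reached more than 46 counts in any sample. Of the 50, 24 lie on chromosome arm 3L, 15 on 2R, 5 on 3R, 3 on 2L and 3 on the X chromosome. They fall in 29 bands, and 31 of them share a band with another member in 10 clusters.

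Proteins of this family carry the Rebers and Riddiford domain, a stretch of sequence that binds chitin. Epidermal cells, and the cells of the trachea and of the fore- and hindgut, secrete such proteins together with chitin from their apical surface, and the proteins and the chitin fibres form the procuticle. In the embryo this happens late in development, when the cuticle of the first larva is laid down, and each later moult makes a new cuticle with its own set of members. Older names such as *Lcp*, *Ccp84A* and *Edg78E* denote genes of the same family, and the Tweedle (*Twdl*) and obstructor (*obst*) genes encode structural cuticle proteins of other families.

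RNA was measured in 14 samples of whole embryos aged 10 to 15 h. The X-linked gene *sgg* (*shaggy*) encodes the GSK-3 kinase, and its major forms end in either the Sgg-PA or the Sgg-PB exon, each of which had been deleted by CRISPR/Cas9. The 3 isoA null samples came from a homozygous stock, so that the embryos lacked the Sgg-PA class of proteins from both the mother and their own genome, and their 3 controls came from the progenitor strain THattP40. Flies of the isoA null stock live and breed. The 4 isoB zygotic null samples were the embryos without fluorescence from the cross of sggisoB/FM7 GFP with FM7 GFP/Y. The 4 isoB controls were embryos without fluorescence which the labels place in the cross of the progenitor with the same balancer. The balancer drives EGFP under *twi*-GAL4, and since it is an X chromosome, embryos without it in such a cross are sons. The isoB nulls kept product that their heterozygous mothers had put into the egg, and they die as late embryos or early larvae. Embryos of the isoA groups were not selected, each null allele was examined in a single line, and isoA and isoB have no control sample in common.

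Total counts on genes ran from 8082962 to 25124367. The isoA null libraries, with 15841397 to 18311205 counts, were all deeper than their controls, with 8082962 to 12800846. Replicates of a group differed by more than sampling noise (chi-square per gene from 12.37 to 79.11 in 18 pairs), and whether the isoB replicates were separate collections is not given in the sources used here, so that the p-values measure the spread between these samples. The table holds 1 count for *sgg* over all exons, which does not show the deletion of 1 of them. Its log2 fold change was 0.26 in isoA null (adjusted p = 0.403, edgeR quasi-likelihood test) and -0.26 in isoB null embryos (adjusted p = 0.113). Lists of muscle, nervous system, haemocyte and epidermal or tracheal markers, of the kinds of cell that a whole embryo holds, were present in every sample. They hold 0 genes called lower in either comparison and 1 called higher, in the isoB comparison. Of all genes tested, 3.58% were called lower and 0.982% higher in isoB, and 0.971% were called in either direction in isoA. At such shares lists this short would hold few calls. The sum of 10 eggshell transcripts, which the mother's ovary makes, was 47.0 to 90.7 CPM in isoA nulls and 8.96 to 20.6 CPM in their controls, with 1 of 6 tested called higher, and at most 2.79 CPM in the isoB samples.

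Levels are given as CPM, the count of a gene scaled to a common library size after TMM over all 14 samples, and as CPM per kb of exon where one gene is set against another. In the isoB controls the members spanned levels from 0.225 CPM per kb, in *Cpr72Ec*, upwards. *Cpr65Ea* was the most abundant per length, at 1676 ± 488 CPM per kb (SD, n = 4), followed by *Cpr51A* at 917 ± 188, *Cpr64Ad* at 573 ± 106, *Cpr64Ab* at 299 ± 48.4 and *Cpr56F* at 233 ± 34.6. The ranges over the 4 samples of *Cpr65Ea* (969 to 2077 CPM per kb) and *Cpr51A* (636 to 1037) overlapped, as did those of *Cpr51A* and *Cpr64Ad* (451 to 694), and of *Cpr64Ab* (227 to 332) and *Cpr56F* (194 to 273). In all, 11 members were at 100 CPM per kb or more, 16 between 10 and 100, 17 between 1 and 10, and 6 below 1. The 5 members of highest mean CPM, *Cpr65Ea*, *Cpr51A*, *Cpr64Ad*, *Cpr56F* and *Cpr62Bc*, together made up between 54.0% and 66.5% of the summed *Cpr* level of a sample. A few genes thus made up most of the summed level.

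The summed level of the 50 members was lower in isoB null than in isoB control embryos in every sample. It was 3095, 4506, 4705 and 3924 CPM in control replicates 1 to 4, and 2607, 1475, 2418 and 2807 CPM in null replicates 1 to 4. The means were 4057 ± 722 CPM (SD, n = 4) and 2327 ± 590 CPM (SD, n = 4), and the groups did not overlap. Null replicate 2 stood lowest of the nulls, and control replicate 1 lowest of the controls. In whole embryos, fewer cells that make a transcript and less of it in each cell cannot be told apart.

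**Figure D1:**
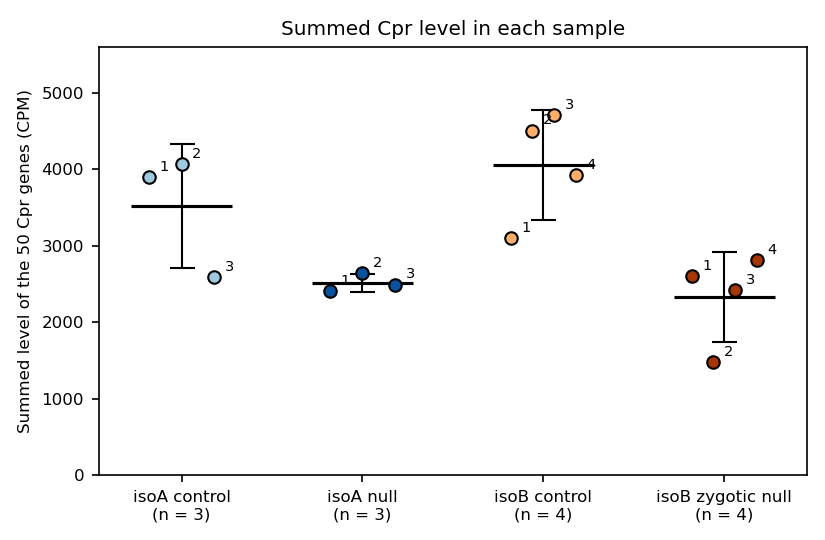
Summed level of the 50 *Cpr* genes (CPM, linear axis from 0) in each of the 14 samples, with the replicate number beside each point, a long bar at the group mean and whiskers of 1 SD. The 4 isoB null samples, between 1475 and 2807 CPM, lie below the 4 isoB controls, between 3095 and 4705, and isoA control replicate 3, at 2588 CPM, lies among the isoA nulls.

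Of the 49 members tested in the isoB comparison, 17 were called lower in the null embryos and 0 were called higher. A call needed an adjusted p of at most 0.05 in edgeR's quasi-likelihood test, with adjustment over all 10693 genes tested, and a log2 fold change of 0.7 or more, up or down. The 17 are 34.7% of the members tested, where 3.58% of all genes tested were called lower and 0.982% higher. The log2 fold change was negative for 45 members and positive for 4, with a median of -0.94, where the median of all genes was -0.01. In 22 members (44.9%) every null sample was below every control, as in 10.4% of all genes tested. Calls came from the members with more counts. Among the 28 with a mean of at least 10 CPM, 15 were called, and among the 21 below it 2 were, although the medians of the log2 fold change, -0.92 and -0.99, were close to each other.

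**Figure D2:**
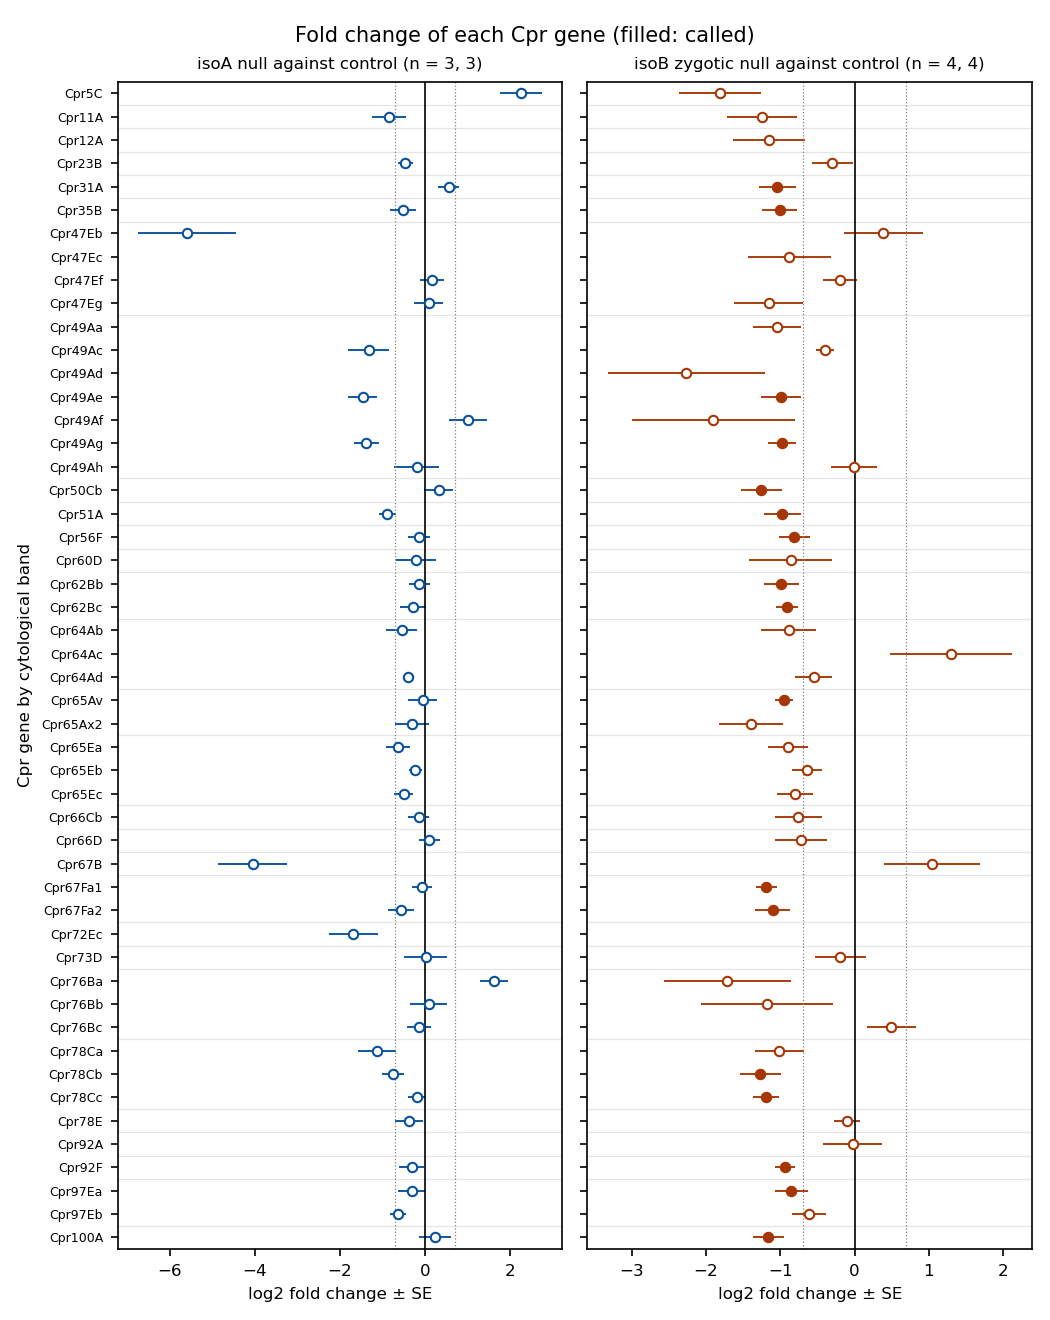
Log2 fold change of each *Cpr* gene, null against control, in the isoA (left) and isoB (right) comparison, in order of cytological band; the x axes differ in range. Whiskers are 1 standard error of the fit, filled points are called genes, dotted lines mark 0.7 in either direction, and a gene with no point was not tested. All 17 filled points are on the negative side of the isoB panel, and *Cpr47Eb* and *Cpr67B* lie farthest to the left in the isoA panel without being called.

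Calls of 6 members stood whichever of the 8 isoB libraries was left out. *Cpr67Fa1* (FBgn0036108, 3L from 10889990 to 10890700 on the Release 6 assembly, plus strand) was at 76.5, 85.2, 79.0 and 84.4 CPM in controls 1 to 4 and at 39.6, 27.7, 47.0 and 32.7 CPM in nulls 1 to 4. The 4 controls lay close together, and the highest null was well below the lowest of them. Its log2 fold change was -1.19 (SE 0.15, adjusted p = 0.00288, edgeR), and its mean in the nulls was 45.3% of that in the controls. *Cpr78Cc* (FBgn0037069, 3L from 21300580 to 21301171) was at 68.6, 71.7, 95.4 and 53.1 CPM in the controls and at 32.7, 37.8, 32.8 and 26.9 CPM in the nulls. Here the nulls were the tighter group. Its log2 fold change was -1.19 (SE 0.17, adjusted p = 0.00575, edgeR).

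*Cpr65Av* (FBgn0052405, 3L from 6139223 to 6139974), which lies in the cluster of larval cuticle protein genes at 65A, was at 49.0, 61.6, 67.3 and 49.1 CPM in controls 1 to 4 and at 32.9, 28.1, 29.6 and 30.5 CPM in nulls 1 to 4. Its 4 null values spanned under 5 CPM, and its log2 fold change was -0.95 (SE 0.12, adjusted p = 0.00354, edgeR). *Cpr62Bc* (FBgn0035281, 3L from 1840281 to 1842084) is an abundant member and was at 191, 274, 289 and 212 CPM in the controls and at 137, 110, 144 and 139 CPM in the nulls. The groups were apart by less than in *Cpr67Fa1*, with a log2 fold change of -0.91 (SE 0.15, adjusted p = 0.00881, edgeR). *Cpr92F* (FBgn0038819, 3R from 20669571 to 20672821) was at 88.5, 114, 132 and 98.1 CPM in the controls and at 57.5, 49.6, 65.4 and 60.0 CPM in the nulls, a log2 fold change of -0.94 (SE 0.14, adjusted p = 0.00605, edgeR). *Cpr100A* (FBgn0039805, 3R from 30867521 to 30869184) was at 36.5, 40.4, 48.3 and 25.8 CPM in the controls and at 17.4, 21.1, 18.9 and 12.3 CPM in the nulls. Control replicate 4 and null replicate 4 were each the lowest of their group for this gene, and its log2 fold change was -1.16 (SE 0.21, adjusted p = 0.0126, edgeR).

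The other 11 called members were *Cpr78Cb* (-1.27), *Cpr50Cb* (-1.26), *Cpr67Fa2* (-1.10), *Cpr31A* (-1.04), *Cpr35B* (-1.01), *Cpr49Ae* (-0.99), *Cpr62Bb* (-0.99), *Cpr51A* (-0.97), *Cpr49Ag* (-0.97), *Cpr97Ea* (-0.85) and *Cpr56F* (-0.81), with the log2 fold change in brackets and adjusted p-values from 0.0151 to 0.0437 (edgeR). The log2 fold changes of the 17 called genes ran from -1.27 to -0.81, a range that the thresholds of the call partly set. In the nulls these genes stood at 42.6% to 58.8% of their control means. None of these 11 calls stood under every omission of a library. Their number over all members ranged from 6, without control replicate 2 and also without control replicate 3, to 20 without null replicate 4, and it was 8 without null replicate 3. The count was 17 again when null replicate 2 and control replicate 1, the libraries of lowest summed level, were left out together.

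Of the 5 members most abundant per length in isoB controls, *Cpr51A* and *Cpr56F* were called lower and the other 3 did not pass the test. *Cpr65Ea* (FBgn0035735, 3L from 7086003 to 7086608) was at 523, 1022, 1122 and 953 CPM in isoB controls 1 to 4 and at 510, 293, 559 and 629 CPM in nulls 1 to 4. Control replicate 1 lay within the range of the nulls, and its log2 fold change of -0.90 (SE 0.27) did not pass the test (adjusted p = 0.0588, edgeR). *Cpr51A* (FBgn0033942, 2R from 14512559 to 14515211), which was called, was at 414, 648, 675 and 652 CPM in the controls and at 338, 172, 336 and 404 CPM in the nulls. Its lowest control, replicate 1, was only just above its highest null. *Cpr64Ad* was at 433, 667, 595 and 509 CPM in the controls and at 470, 206, 383 and 490 CPM in the nulls. Its groups overlapped, and the log2 fold change was -0.55 (SE 0.25, adjusted p = 0.163, edgeR). *Cpr64Ab* had a log2 fold change of -0.88 (SE 0.37, adjusted p = 0.142, edgeR), and its null replicate 2 stood at 27.7 CPM where the other nulls were at 101 to 128.

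The most extreme values of the isoB comparison belonged to members with means under 10 CPM in both isoB groups, and none of these values passed the test. Other rare members, such as *Cpr49Ah* (-0.01) and *Cpr73D* (-0.19), had small values. The largest negative log2 fold changes were those of *Cpr49Ad* (-2.27, SE 1.06), *Cpr49Af* (-1.90, SE 1.10) and *Cpr5C* (-1.81, SE 0.55), with adjusted p-values of 0.178, 0.264 and 0.0619 (edgeR). *Cpr49Af* was at 11.1, 1.70, 1.90 and 0.404 CPM in controls 1 to 4 and at 1.32, 2.75, 0.172 and 0.0405 CPM in nulls 1 to 4. Control replicate 1 carried most of its control level and the groups overlapped. The positive values were those of *Cpr64Ac* (1.30, SE 0.82), *Cpr67B* (1.04, SE 0.64), *Cpr76Bc* (0.49, SE 0.33) and *Cpr47Eb* (0.39, SE 0.53). In *Cpr64Ac*, *Cpr67B* and *Cpr47Eb* they came from null replicate 1 alone, at 10.9, 12.7 and 10.3 CPM, where the other nulls were at 0.892 to 0.989, 1.38 to 3.37 and 1.46 to 3.08 CPM. Of the 49 members tested, 38 passed the filter on low counts in both groups and hold all 17 calls. The other 11 passed through the controls alone or in neither group alone, and for the former the filter itself favours a lower null. These 11 were all negative and hold 0 calls. Among the 38, 34 were negative, with a median of -0.89, and in 19 every null was below every control.

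By cluster, the median isoB log2 fold change was negative in all 10 clusters of 2 or more members, and called genes were found in 6 of them. The cluster at 49A on 2R has 7 members within 38.5 kb, and all 7 were negative, 2 of them called, from -2.27 in *Cpr49Ad* to -0.01 in *Cpr49Ah*, whose sign changed between settings. Both members at 62B and both at 67F were called, as were 2 of 3 at 78C, where *Cpr78Ca* was at -1.01 (adjusted p = 0.0714, edgeR). At 65A *Cpr65Av* was called and *Cpr65Ax2* (-1.40, SE 0.43, adjusted p = 0.0648, edgeR) was not, and at 97E *Cpr97Ea* was called and the other member was not. None was called of the 3 members at 65E, from -0.90 in *Cpr65Ea* to -0.64 in *Cpr65Eb*, of the 3 at 64A, from -0.88 in *Cpr64Ab* to 1.30 in *Cpr64Ac*, of the 4 at 47E, from -1.16 in *Cpr47Eg* to 0.39 in *Cpr47Eb*, or of the 3 at 76B, from -1.71 in *Cpr76Ba* to 0.49 in *Cpr76Bc*.

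Clusters of neighbouring genes were not uniform in level. At 65E, where 3 members lie within 7.84 kb, *Cpr65Ea* was at 1676 CPM per kb in isoB controls and *Cpr65Eb* at 156. At 64A, *Cpr64Ad* was at 573 CPM per kb and *Cpr64Ac*, from the same 5.54 kb, at 1.42. The summed level of the cluster at 65E was 657 to 1319 CPM in the isoB controls and 373 to 776 CPM in the nulls, and the groups overlapped. The sums at 67F (104 to 139 CPM in controls, 45.1 to 67.1 in nulls), 78C (87.0 to 150 and 38.6 to 64.4), 49A (54.4 to 67.3 and 27.0 to 40.2), 62B (220 to 322 and 118 to 161) and 65A (52.5 to 73.6 and 31.4 to 33.6) did not overlap between the isoB groups. Those at 47E, 64A, 76B and 97E overlapped.

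In isoA null embryos 0 of the 44 members tested were called, where 0.971% of all 10397 genes tested were called in either direction. An unadjusted p under 0.05 was found for 15 members (34.1%), as for 18.9% of all genes. Among the 38 members that passed the low-count filter in both groups it was found for 11. DESeq2 called 6 members and limma-voom 0, and the share of all genes called by these tests is not given here. The log2 fold change was negative for 33 and positive for 11 members, with a median of -0.29, where the median of all genes was -0.01. In 10 members (22.7%) every null sample was below every control, as in 12.5% of all genes. Of these 10, 8 passed the low-count filter in both groups. In 2 members (4.55%), *Cpr5C* and *Cpr76Ba*, every null sample was above, as in 12.4% of all genes. The summed level was 3896, 4070 and 2588 CPM in isoA controls 1 to 3 and 2406, 2644 and 2492 CPM in nulls 1 to 3. Control replicate 3 lay among the nulls, and 29 of the 50 members had their lowest control value in it. Without that library 6 members were called, all lower, 28 had an unadjusted p under 0.05, and the median was -0.40. Without control replicate 2, 2 members were called and the median was -0.13. The share of all genes called without these libraries is not given here either.

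The largest isoA log2 fold changes were those of *Cpr47Eb* and *Cpr67B*, and both rested on a wide spread among the controls. *Cpr47Eb* (FBgn0033598, 2R from 11255167 to 11255983) was at 46.2, 3.18 and 156 CPM in controls 1 to 3 and at 1.44, 1.25 and 1.54 CPM in nulls 1 to 3. *Cpr67B* (FBgn0035985, 3L from 9404797 to 9406174) was at 76.8, 5.38 and 28.1 CPM in the controls and at 2.01, 2.56 and 2.15 CPM in the nulls. In both genes control replicate 2 was far below the other controls, yet above every null. The log2 fold changes were -5.60 (SE 1.16, adjusted p = 0.0781) and -4.05 (SE 0.81, adjusted p = 0.0684) in edgeR's test. Without control replicate 2 both were called, and DESeq2 called them too. In the isoB controls both genes were low, at 3.12 ± 0.98 and 2.17 ± 1.00 CPM (SD, n = 4). *Cpr72Ec*, known as a component of the corneal lens of the adult eye, had the next lowest value at -1.68 (SE 0.57, adjusted p = 0.19, edgeR), with 10 to 20 counts in the controls and 3 to 16 in the nulls. It passed the low-count filter of the isoA comparison through the controls alone, in which it is high, so that its value is a description.

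A second set of members was lower in both mutants without overlap. In isoA, *Cpr49Ae* was at 12.3, 16.2 and 6.69 CPM in controls 1 to 3 and at 5.19, 3.45 and 4.06 CPM in nulls 1 to 3, a log2 fold change of -1.47 (SE 0.34, adjusted p = 0.1, edgeR). *Cpr49Ag* was at 40.9, 43.2 and 90.4 CPM in the controls and at 22.3, 23.5 and 21.5 CPM in the nulls (-1.38, SE 0.29, adjusted p = 0.079, edgeR). *Cpr51A* was at 629, 716 and 429 CPM in the controls and at 348, 283 and 335 CPM in the nulls (-0.88, SE 0.19, adjusted p = 0.0861, edgeR). Together with *Cpr78Ca*, which passed the filter only through the controls in both comparisons, these were the 4 members in which every null was below every control in both comparisons, 9.3% of the 43 tested in both, as were 2.09% of all genes tested in both. *Cpr49Ae*, *Cpr49Ag* and *Cpr51A* were called in isoB and not in isoA, and their effects were not shown to differ, with interaction p-values adjusted over all genes of 0.55, 0.513 and 0.93 (edgeR).

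Among the members that were higher in isoA nulls, *Cpr5C* (FBgn0029811, X from 5804677 to 5805344) had 5, 1 and 2 counts in controls 1 to 3 and 18, 25 and 22 in nulls 1 to 3. Its level over the group was 4.82 times that of the controls (95% exact binomial interval 2.31 to 11.6, for counting error only), with a fitted log2 fold change of 2.26 (SE 0.49, adjusted p = 0.0861, edgeR). *Cpr76Ba* was at 0.608, 0.612 and 0.803 CPM in the controls and at 1.90, 2.14 and 2.28 CPM in the nulls (1.62, SE 0.32, adjusted p = 0.0684, edgeR). *Cpr76Ba* had 5 to 9 counts in a control. Both genes passed the low-count filter of the isoA comparison through the null group alone, in which they are high, so that their values are a description. *Cpr49Af* was next, at 1.01 (SE 0.44, adjusted p = 0.263, edgeR), and its groups overlapped. *Cpr49Ad* was not tested in isoA; it had 0 counts in all 3 controls, which allows up to 3 counts in each, and 14, 36 and 5 counts in the nulls.

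A direct test of the isoB effect against the isoA effect used an interaction contrast over the 4 groups. Of the 50 members, 3 were called (6.0%), where 2.54% of the 11021 genes tested were. The isoB effect minus the isoA effect was 5.99 on the log2 scale for *Cpr47Eb* (SE 1.30, adjusted p = 0.0277), 5.09 for *Cpr67B* (SE 1.15, adjusted p = 0.0341) and -4.07 for *Cpr5C* (SE 0.86, adjusted p = 0.0239, edgeR). *Cpr5C* passed the low-count filter in each experiment only through the group in which it is high, the isoA nulls and the isoB controls. *Cpr31A*, at -1.57 (SE 0.39), and *Cpr67Fa1*, at -1.09 (SE 0.29), came closest among the rest, with adjusted p-values of 0.0507 and 0.0577 (edgeR). The count was 0 without isoA null replicate 2 or 3, 1 without isoA null replicate 1, isoB control replicate 2 or 3 or isoA control replicate 3, and 5 without isoA control replicate 2. None of the 17 genes called in isoB was called by this test with edgeR as described, but 5 of them were under other settings, each with the more negative effect in isoB. DESeq2 called *Cpr31A*, *Cpr50Cb*, *Cpr67Fa1*, *Cpr78Cc* and *Cpr100A*, limma-voom called *Cpr67Fa1*, and edgeR called *Cpr31A* and *Cpr67Fa1* with library totals and *Cpr31A* with no filter or with a minimum count of 30. Over the 43 members tested in both comparisons, 29 were negative in both, 11 in isoB alone and 3 in isoA alone, and the isoB value was the lower in 32. Of the 17 called in isoB, 14 were negative in isoA and 3 were positive, namely *Cpr31A* (0.56), *Cpr50Cb* (0.32) and *Cpr100A* (0.23), none of which passed the isoA test.

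**Figure D3:**
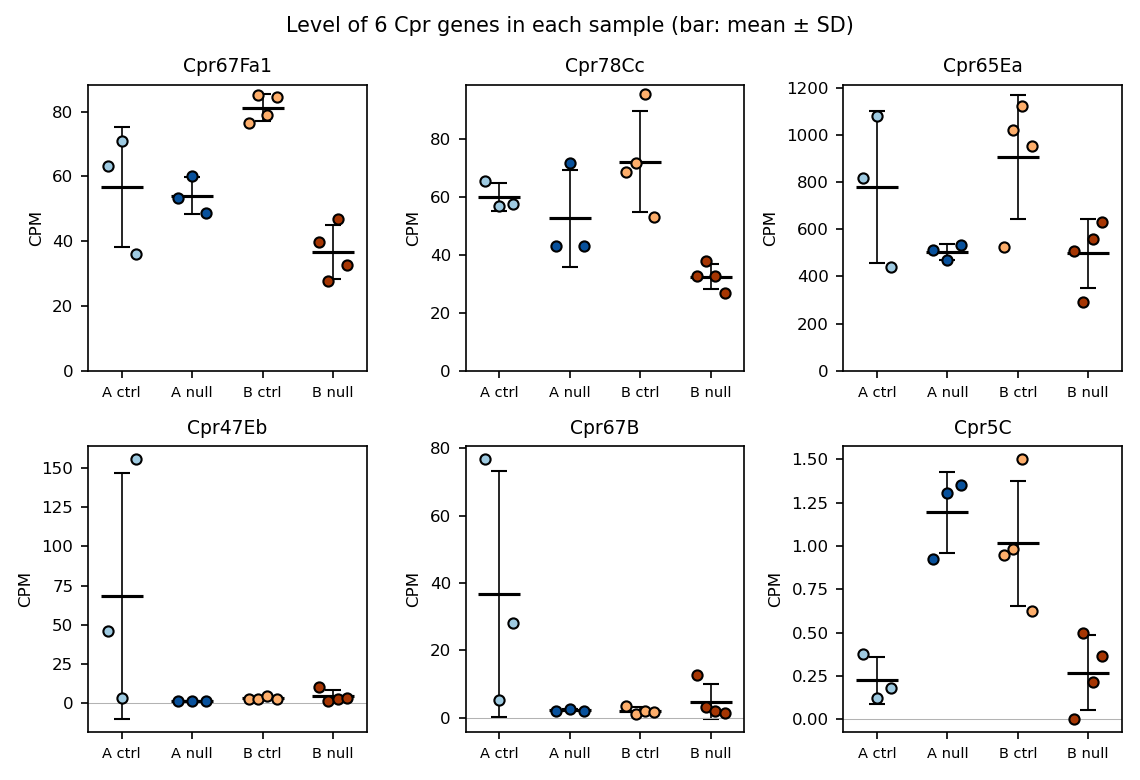
Level (CPM, linear axes, each panel with its own range) of 6 *Cpr* genes in each sample of the isoA controls (A ctrl), isoA nulls (A null), isoB controls (B ctrl) and isoB nulls (B null), with the mean and whiskers of 1 SD. *Cpr67Fa1* and *Cpr78Cc* separate the isoB groups, *Cpr65Ea* has 1 isoB control among the nulls, *Cpr47Eb* and *Cpr67B* are high in 2 of the 3 isoA controls, and *Cpr5C* is higher in isoA nulls and lower in isoB nulls than in their controls.

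Within the isoB groups the members did not all follow the same order of replicates. In 24 members both null replicate 2 and control replicate 1 were the lowest of their group. These include all of the 5 most abundant, and 13 of them were called. Their summed level was 2724 CPM in control 1 and 3699 to 4280 CPM in the other controls, and 1243 CPM in null 2 and 2268 to 2699 CPM in the other nulls. In 11 other members both null replicate 4 and control replicate 4 were the lowest. Among these are *Cpr31A*, *Cpr47Eg*, *Cpr76Ba*, *Cpr78Cc* and *Cpr100A*. Their summed level was 300, 251, 330 and 157 CPM in controls 1 to 4 and 139, 174, 104 and 69.4 CPM in nulls 1 to 4. For this set null 2 was thus the highest null, where for the larger set it was the lowest, and it overlapped control 4. The sets were formed from these values, replicate numbers do not link a null with a control, and no test was made of the split. The median log2 fold change was -0.89 in the larger and -1.18 in the smaller set.

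**Figure D4:**
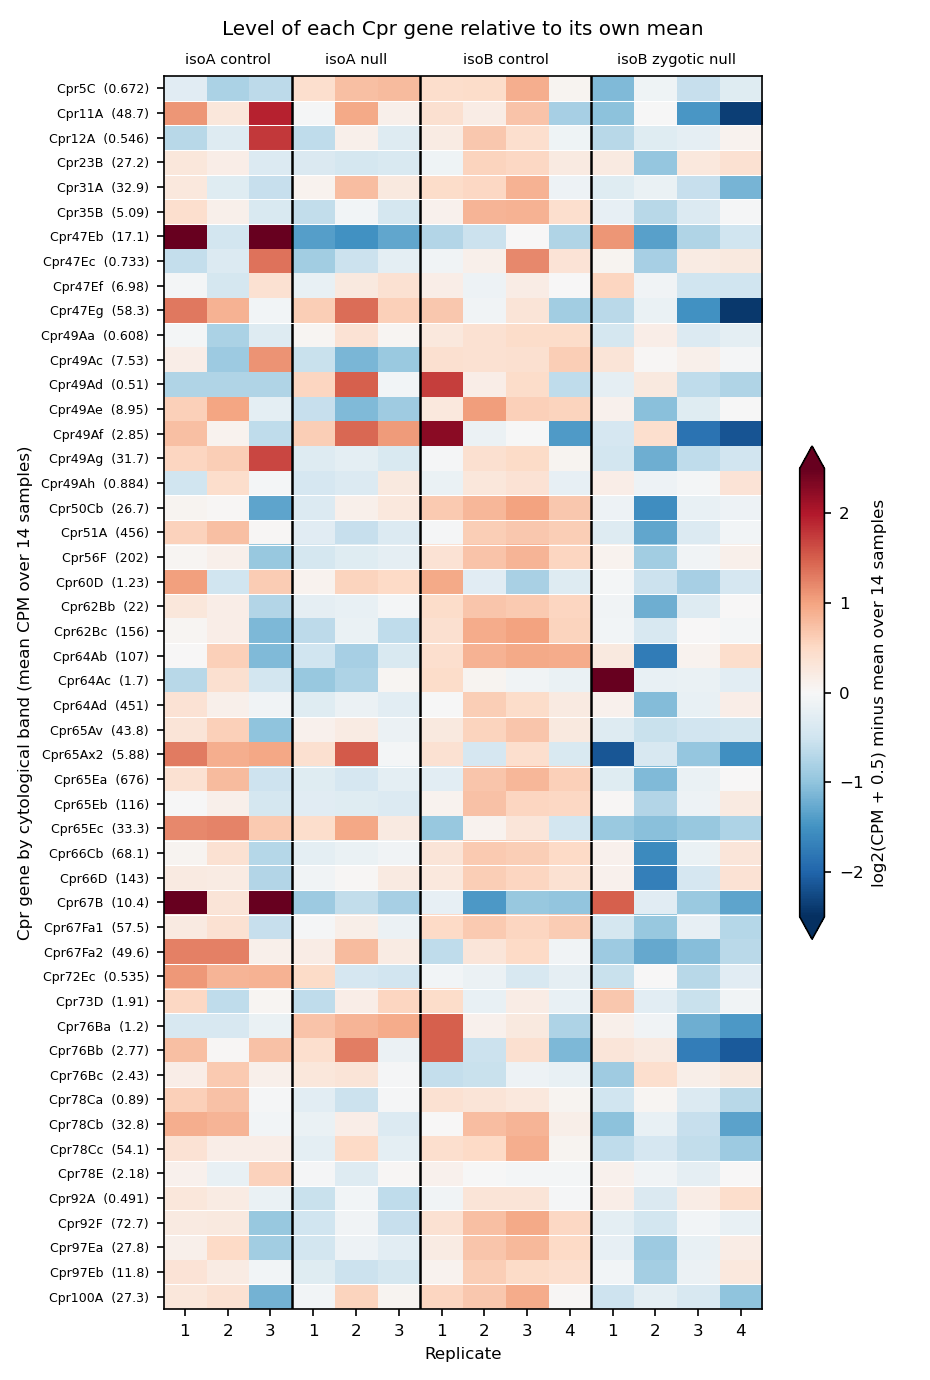
Level of each of the 50 *Cpr* genes in each sample as log2(CPM + 0.5) minus the mean of that gene over the 14 samples, with colours capped at 2.5 in either direction; genes are in order of cytological band with their mean CPM in brackets, and black lines part the groups. Most rows are red in the isoB controls and blue in the isoB nulls, null replicate 2 is the darkest blue for abundant genes such as *Cpr64Ab* and *Cpr51A*, and null replicate 4 for genes such as *Cpr47Eg* and *Cpr76Ba*.

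Of a list of 69 structural cuticle protein genes under other names, 56 were tested in isoB, and 17 of these were called lower and 0 higher, against the 3.58% of all genes that were called lower. The log2 fold change was negative in 54, with a median of -0.77. Genes under older names such as *Lcp*, *Ccp84A* and *Edg* gave 8 called lower of 21 tested, among them *Lcp65Ae* (-2.06), *Ccp84Aa* (-1.85) and *Edg78E* (-1.04), and the *Twdl* genes 5 of 24, among them *TwdlB* (-1.06) and *TwdlM* (-0.72), adjusted p from 0.00507 to 0.0161 (edgeR). The summed level of the list was 12310 to 15620 CPM in isoB controls and 6020 to 11080 CPM in the nulls, and null replicate 2 and control replicate 1 were again the lowest of their groups. In isoA the same list held 0 called lower and 1 called higher of 57 tested, with a median of -0.19, and control replicate 3 was again the lowest of its group, at 7461 CPM against 12860 and 12960.

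Genes that make the chitin of the cuticle, or harden and time it, were also examined in isoB. Of all genes tested there, 3.58% were called lower and 0.982% higher. Of 26 tested genes of chitin synthesis and the chitin matrix, *knk* (0.75, adjusted p = 0.0182), whose product protects new chitin, was called higher, and *Cda9* (-1.19, adjusted p = 0.04), of the chitin deacetylase family, lower (edgeR). The median of that list was -0.03. Of 11 genes of crosslinking and pigment, *b* (*black*), the enzyme that makes beta-alanine for tanning, was called lower (-1.05, adjusted p = 0.0115, edgeR), and 9 were negative, with a median of -0.27. In that list *Ddc*, the dopa decarboxylase, was at -0.81 (adjusted p = 0.0712) and *AANAT1*, an N-acetyltransferase, at -0.55 (adjusted p = 0.0237, under the fold threshold) in edgeR's test. The gene *ple* went the other way, at 0.60 (adjusted p = 0.0223, edgeR, also under the fold threshold). Of 17 ecdysone-timed regulators and transcription factors of the cuticle, *Eip74EF*, an ecdysone-induced transcription factor, was called lower (-0.72, adjusted p = 0.0186, edgeR), and the median was 0.00. In isoA 0 genes of these 3 lists were called, where 0.971% of all genes tested were. The sum of 14 epidermal and tracheal markers was 4617 to 5355 CPM in isoB controls and 4986 to 6445 CPM in isoB nulls, and 1 of the 14 was called higher and 0 lower. Only 2 of the 14 were negative, with a median of 0.16. All 8 muscle markers were negative in isoB, with a median of -0.29 and 0 called. The medians of 8 nervous system and 6 haemocyte markers were -0.13 and 0.33, again with 0 called, and of 6 fat body genes 2 were tested and 0 called. Among the uncalled markers, *Mf* (-0.54), *Rdl* (-0.63), *srp* (0.55) and *Pxn* (0.45) were under the fold threshold alone. Their adjusted p-values were 0.0378, 0.0295, 0.00848 and 0.0265 (edgeR). The part of tissue make-up, of the age of the embryos within the window of collection or of the library in these results was not tested.

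Reads on some members may not be assigned with certainty. *Cpr67Fa1* and *Cpr67Fa2* are neighbouring copies by name, at 3L from 10889990 to 10890700 and from 10891714 to 10892516. Their sequences were not compared here, and reads common to both, if any, could be dropped or counted for either. Both were called in isoB, where *Cpr67Fa2* was at 27.2, 52.9, 60.4 and 40.4 CPM in controls 1 to 4 and at 22.5, 17.4, 20.1 and 26.5 CPM in nulls 1 to 4. The pair held its order of level differently in the controls of the 2 experiments. *Cpr67Fa2* was the higher per length in isoA controls (150 against 103 CPM per kb) and *Cpr67Fa1* in isoB controls (147 against 80.1). In isoA nulls *Cpr67Fa2* was at 101.9 CPM per kb and *Cpr67Fa1* at 97.59. Their ranges there, 86.45 to 131.5 and 87.89 to 108.5, overlapped. In isoB nulls *Cpr67Fa1* was at 66.38 and *Cpr67Fa2* at 38.3 CPM per kb. *Cpr65Ax1*, the numbered copy of *Cpr65Ax2*, was listed at 0 in all 14 samples. *Cpr73D* overlaps exons of *Ogdh*, and reads that fall on both genes were not counted, and its log2 fold changes were 0.01 in isoA and -0.19 in isoB, neither of which was called.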

How the data were processed

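Poly(A) RNA of 14 samples was read from 1 end. Alignment by the authors used TopHat2 2.1.1 and Bowtie2 2.3.4.0, and reads were counted on exons of the Release 6 annotation with Rsubread under default settings, which ignore strand and drop reads that fall on more than 1 gene. The deposited counts, whole numbers for 17493 genes without normalisation, were the basis of every value. Tables of the authors (edgeR 3.14.0 and limma 3.28.21) gave the gene symbols and membership. Their log2 values, fold changes and p-values were not used, and their counts were the same as in the count table (0 cells differ).

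Null and control samples were compared within each experiment with edgeR 4.0.16 in R 4.3.3 by quasi-likelihood tests, after filterByExpr (minimum count 10, minimum total 15) and TMM scaling, with Benjamini-Hochberg adjustment over all genes kept and no covariates. The thresholds, 0.05 and 0.7, are those of the study. The interaction was called at 0.05 alone. SE are from the fit. The fits were tested on simulated data. A level of 3 counts is 0.122 to 0.367 CPM by library. Exon lengths and positions are from a later Ensembl annotation of the same assembly, in which all 50 members were found.

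Members and lists were chosen with earlier results of these data known. Genes named were those called in either comparison or in the interaction, the 3 largest changes in each direction, the 5 most abundant per length in isoB controls, numbered copies, and the lowest and highest isoB value of each cluster of 3 or more. *Cpr65Ax1*, *Cpr73D*, *Ogdh* and genes of the lists were named outside this rule, after their values were seen. Protein sequences were not used here, so copies were recognised by name alone. Alternatives were RLE scaling, library totals, no filter, a minimum count of 30, DESeq2 1.42.0, limma-voom (limma 3.58.1), the adjusted p alone, a replicate block, all 14 samples in one fit and omission of each library.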

Additional observations from a re-analysis of the deposited data

Results flagged for a closer look

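Over the named members and the summed level in the isoB controls and nulls, 70 groups of 4 samples in all, 5 held a sample far from the other 3 by Dixon's test, where chance gives about 1 group in 20. *Cpr51A* was at 414.1 CPM in isoB control replicate 1 and at 647.6 to 675.0 CPM in the other controls. *Cpr64Ab* was at 125.5 CPM in the same library and at 173.1 to 183.0 CPM in the others. *Cpr64Ab* was at 27.68 CPM in isoB null replicate 2 and at 100.6 to 127.6 CPM in the other nulls, and *Cpr50Cb* at 7.826 CPM in null replicate 2 and at 21.10 to 21.95 CPM in the others. *Cpr64Ac* was at 10.87 CPM in isoB null replicate 1 and at 0.8917 to 0.9886 CPM in the others.

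The interaction test called 3 members, and 0 without isoA null replicate 2 or without isoA null replicate 3. The isoA and isoB experiments also differed in cross and in selection of embryos, and the part of these in the difference was not tested. The isoB effect minus the isoA effect was -4.075 for *Cpr5C*, 5.99 for *Cpr47Eb* and 5.093 for *Cpr67B* on the log2 scale. In *Cpr5C* all 3 isoA nulls were above their controls and all 4 isoB nulls below theirs. This gene passed the low-count filter only through the isoA nulls and the isoB controls, in which it is high.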

How the results depend on the processing

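The count of 17 isoB calls lay between 16 and 21 under RLE scaling, library totals, DESeq2, limma-voom, no filter, a minimum count of 30, the adjusted p alone, all 14 samples in one fit and, chosen after seeing the data, omission of null replicate 2 with control replicate 1. Leaving out single libraries gave 6 to 20 calls and medians from -0.755 to -0.995. In isoA, 0 calls became 6 with DESeq2, 2 with no filter and 4 with all 14 samples in one fit, and 0 to 6 without single libraries, with medians from -0.415 to -0.127. The 3 interaction calls became 5 with library totals, 9 with DESeq2, 2 with limma-voom and 4 with no filter, and 0 to 5 without single libraries. Replicate numbers do not pair the samples (same-number correlations of deviations from -0.146 to -0.0664 in isoA and from -0.166 to 0.191 in isoB); a fit with the replicate block called 8 members in isoB, 0 in isoA and 0 in the interaction. In isoB the value of *Cpr49Ah*, -0.01, became 0.019 with RLE scaling, 0.021 with DESeq2, 0.034 with limma-voom, 0.021 with no filter, 4.72e-03 with the replicate block, 0.012 with all samples, 7.89e-03 without the pair of libraries. *Cpr47Eb* became -0.057 with limma-voom. Leaving out single isoB libraries gave values from -0.156 to 0.172 for *Cpr49Ah*, from -0.439 to 0.711 for *Cpr47Eb*, from -0.453 to 1.651 for *Cpr64Ac* and from -6.84e-03 to 1.399 for *Cpr67B*, and the last 3 were negative only without null replicate 1. Of the values of single named genes under all alternatives, 580 kept direction and side of the threshold, 81 fell below it, 21 passed it and 15 changed sign. The share of all genes called under each alternative is not given here, and the causes were not tested.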
